A study of Mus musculus with 4 samples.

Results

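The 8 genes described here encode the core of the interleukin-1 system and were taken by symbol, as the rows of the feature tables named Il1a, Il1b, Il1rn, Il1r1, Il1r2, Il1rap, Il18 and Nlrp3, out of 31253 gene rows in all. Their RNA was measured as unique molecular identifiers (UMIs, one per captured RNA molecule) in single cells of mouse lung. Lungs came from WT mice and from Vegfr2Y949F mice, both on the C57BL/6J background, both 6 to 8 weeks old and both kept in hypoxia for 6 weeks, so hypoxia was shared by both groups and no normoxic lung was analysed here. In Vegfr2Y949F mice 1 tyrosine of VEGFR2, the chief endothelial receptor for VEGF-A, is replaced by phenylalanine, and a point change of this kind leaves nothing in UMI counts of its gene, Kdr, to check the labels against. The Vegfr2Y949F libraries are called mutant below. There were 4 libraries, WT A, WT B, mutant A and mutant B. Each came from a pooled suspension of 2 mice, so values of single animals cannot be had. P-values between genotypes rest on the spread between 2 pools per genotype. Those between cell types come from fits with library as a block, and so rest on differences within the 4 libraries. Interaction fits also have library as a block and compare 2 pools per genotype.

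Interleukin-1 alpha and interleukin-1 beta are cytokines that bind the same receptor, made of the chain encoded by Il1r1 and the accessory chain encoded by Il1rap, and signal through MYD88 and NF-kB. The antagonist encoded by Il1rn occupies the receptor without signalling, and the decoy receptor encoded by Il1r2 binds ligand but has no signalling domain. Interleukin-1 beta and interleukin-18 are made as inactive precursors that caspase-1 cleaves inside an inflammasome, for which NLRP3 is one of the sensors, whereas the interleukin-1 alpha precursor is already active. RNA levels therefore say nothing of how much cytokine was cleaved or released.

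The genes lie in small clusters of the mouse genome (mm10, GENCODE M21 annotation), and all are protein coding. Il1a (chr2:129299610-129309972) and Il1b (chr2:129364570-129371139) are neighbours on the minus strand of chromosome 2, with Il1rn at chr2:24336853-24351494 on the plus strand. Il1r2 (chr1:40074079-40125231) and Il1r1 (chr1:40225080-40317257) lie near each other on the plus strand of chromosome 1. Il1rap is at chr16:26581704-26730117, Il18 at chr9:50554827-50581840 and Nlrp3 at chr11:59541568-59566956. The 250 bases upstream of the start site are shown for the 3 cytokines, the antagonist and the inflammasome sensor, because the values below turn on which of them shared their cell types. They are RefSeq sequences of build GRCm38.p6, printed 5′ to 3′ on the gene's strand, with motif matches in capitals:

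Il1a, chr2:129309973-129310222, minus strand: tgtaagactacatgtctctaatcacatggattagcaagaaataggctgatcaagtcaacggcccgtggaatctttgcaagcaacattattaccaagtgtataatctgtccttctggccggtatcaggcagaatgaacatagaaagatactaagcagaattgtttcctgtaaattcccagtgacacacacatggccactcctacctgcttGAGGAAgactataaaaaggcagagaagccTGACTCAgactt

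Il1b, chr2:129371140-129371389, minus strand: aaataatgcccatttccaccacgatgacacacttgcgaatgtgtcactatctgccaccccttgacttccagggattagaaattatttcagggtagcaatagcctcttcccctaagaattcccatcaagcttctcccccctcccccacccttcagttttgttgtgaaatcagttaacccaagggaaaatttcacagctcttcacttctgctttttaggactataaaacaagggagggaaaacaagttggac

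Il18, chr9:50554450-50554699, plus strand: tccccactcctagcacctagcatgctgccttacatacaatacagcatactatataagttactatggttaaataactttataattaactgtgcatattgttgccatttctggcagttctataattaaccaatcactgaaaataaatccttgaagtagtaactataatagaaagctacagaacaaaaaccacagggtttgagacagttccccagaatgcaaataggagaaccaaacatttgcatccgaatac

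Il1rn, start site 3, chr2:24345121-24345370, plus strand: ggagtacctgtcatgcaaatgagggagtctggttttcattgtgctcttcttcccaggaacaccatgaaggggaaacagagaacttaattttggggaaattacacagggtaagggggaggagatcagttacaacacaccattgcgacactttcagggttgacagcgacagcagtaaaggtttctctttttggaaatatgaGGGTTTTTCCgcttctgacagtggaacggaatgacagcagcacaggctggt

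Nlrp3, start site 1, chr11:59542436-59542685, plus strand: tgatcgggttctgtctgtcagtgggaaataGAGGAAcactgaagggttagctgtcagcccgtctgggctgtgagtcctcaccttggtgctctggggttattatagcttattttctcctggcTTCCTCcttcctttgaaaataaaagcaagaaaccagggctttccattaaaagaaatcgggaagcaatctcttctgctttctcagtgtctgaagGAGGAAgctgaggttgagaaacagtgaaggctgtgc

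The searched motifs were NF-kB (GGG, any 2 bases, TTTCC), C/EBP (TTNCGNAA), PU.1 (GAGGAA) and AP-1 (TGANTCA), on both strands, over the 300 bases from 250 before to 50 after each start site. Such a window held an NF-kB match in 1.63% of 32851 mouse promoters, a C/EBP match in 2.47%, a PU.1 match in 28.3% and an AP-1 match in 7.81%. Il1a held a PU.1 match at positions -41 to -36 and an AP-1 match at -12 to -6, counted with the start base as 0. Il1rn held an AP-1 match at start site 1 and an NF-kB match at start sites 2 and 3, whose windows overlap. Nlrp3 held 3 PU.1 matches at start site 1 and no match of any searched motif at start site 2. No match was found in the windows of Il1b, Il18, Il1r1, Il1r2 and Il1rap, which says only that these letters are not in those windows. A match is a run of letters and not a shown binding site.

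The deposited libraries held 11992 to 15160 barcodes and 83606389 to 96521589 UMIs, and 9304 to 11446 cells per library were kept, with a median of 4312 to 5548.5 UMIs. Cells fell into 27 named types, and 4041 cells stayed unnamed. The members and the other interleukin-1 family ligands and receptors were left out of the clustering. Pairs of libraries shared 43 to 70 barcodes. Mutant A stood apart in its share of neutrophils: they were 16.6% of its kept cells, against 5.84% in WT A, 5.20% in WT B and 4.08% in mutant B (exact permutation p = 1, two-sided, where 2 against 2 libraries cannot go below 0.333). WT A stood apart in other types. General capillary cells were 49.9% of its kept cells, against 35.0 to 35.95% in the others, and T cells 0.594%, against 2.16 to 6.505%. Alveolar macrophages numbered 47 in WT A, 185 in WT B, 105 in mutant A and 91 in mutant B. The 8 markers of neutrophils summed to between 79480 and 117000 CPM (a gene's UMIs scaled to the same total in every sum) in the neutrophils and to between 298 and 395 CPM in stromal cells. The 10 alveolar macrophage markers summed to 6067 to 7552 CPM in alveolar macrophages and to at most 75.9 CPM in neutrophils.

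Among the types with at least 20 cells in every library, interleukin-1 beta RNA was highest in neutrophils, the first phagocytes to enter injured lung. Il1b was at 5204 CPM in WT A, 3155 in WT B, 4405 in mutant A and 2992 in mutant B neutrophils. Interstitial macrophages came next at 734 to 1363 CPM and alveolar macrophages followed at 258 to 993 CPM. The neutrophil libraries did not overlap with either macrophage type, while the ranges of the 2 macrophage types overlapped. Outside the myeloid cells the next type, club cells, was at 9.54 CPM on average, so Il1b was 58.1-fold lower there than in alveolar macrophages. Of the types with fewer cells, conventional type 2 dendritic cells had 2836, 1687, 1350 and 3761 CPM in WT A, WT B, mutant A and mutant B, from 8 to 31 cells per library. In mutant B they lay above the neutrophils.

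**Figure D1:**
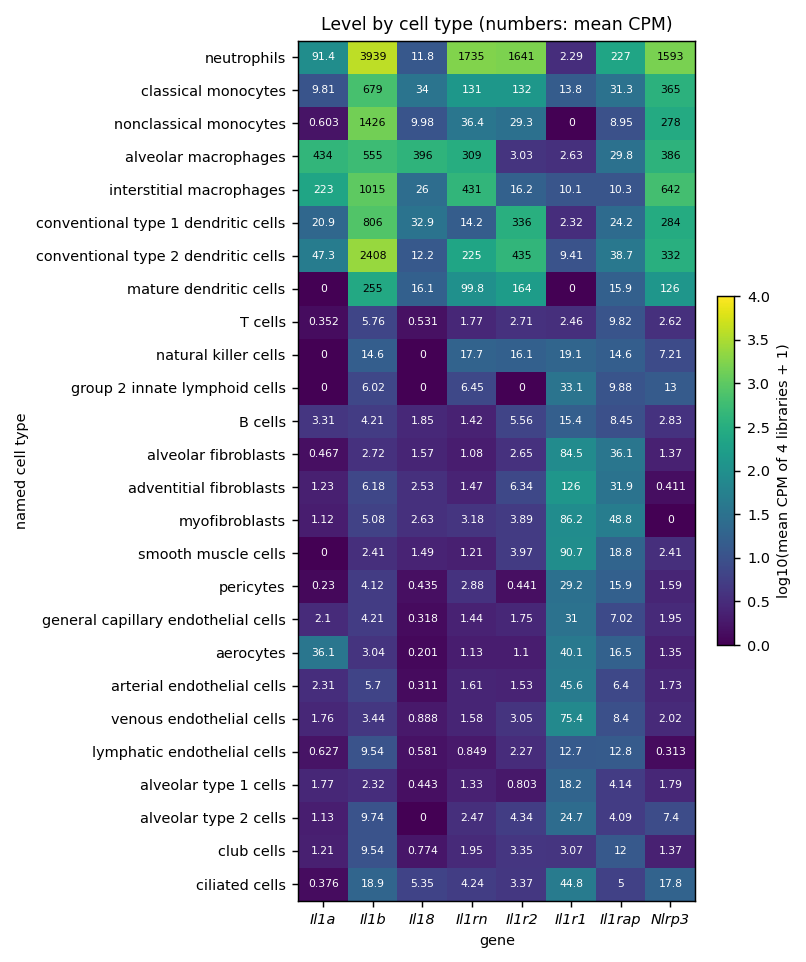
Mean CPM over 4 libraries of the 8 genes (columns) in 26 named cell types (rows); colour is log10(mean CPM + 1) and the printed numbers are the means. Il1b, Il1rn, Il1r2 and Nlrp3 are highest in neutrophils, Il1a and Il18 in alveolar macrophages and Il1r1 in fibroblasts and other structural cells.

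The difference between neutrophils and macrophages was far larger than the spread between libraries. In fits with library as a block, 76% of 8091 genes differed between neutrophils and alveolar macrophages and 71.2% of 6156 between neutrophils and interstitial macrophages, so passing the threshold was usual for any gene. Il1b was higher in neutrophils than in alveolar macrophages by 4.06 on the log2 scale (SE 0.25, edgeR adjusted p = 2.3e-10) and than in interstitial macrophages by 2.53 (SE 0.25, edgeR adjusted p = 1.9e-06). With library size alone in place of TMM factors the differences were 2.93 and 1.92. The median over all genes was -0.11 against alveolar macrophages and -0.03 against interstitial macrophages with TMM factors, and -1.23 and -0.65 with library size alone. Against classical monocytes, the difference was 3.12 (SE 0.12, edgeR adjusted p = 1.1e-11) or 2.54 with library size alone, where 70.4% of 6887 genes differed.

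A UMI of Il1b was found in most neutrophils. With every cell thinned to 1000 UMIs, the share was 90.6% (Wilson 95% interval 88.1 to 92.7%) of 630 WT A neutrophils, 81.2% (77.55 to 84.4%) of 505 in WT B, 90.4% (89.0 to 91.6%) of 1895 in mutant A and 68.7% (63.85 to 73.1%) of 380 in mutant B. The intervals cover counting error only. General capillary endothelial cells, which should lack the gene, gave 0.353%, 0.353%, 1.14% and 0.428% in the same order. This share was highest in mutant A, the library with the most neutrophils, and the part of free RNA in it was not tested. Alveolar macrophages with an Il1b UMI made up 31.9%, 23.2%, 16.2% and 24.2%, and interstitial macrophages 34.0%, 36.0%, 25.8% and 44.2%.

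Il1rn, the receptor antagonist, had the same order as Il1b among neutrophils, interstitial macrophages and alveolar macrophages. Its level in neutrophils was 1922 CPM in WT A, 1295 in WT B, 1696 in mutant A and 2026 in mutant B. Interstitial macrophages had 306 to 534 CPM and alveolar macrophages 208 to 395 CPM, ranges that overlapped each other and not that of neutrophils. Neutrophils were above alveolar macrophages by 3.62 on the log2 scale (SE 0.20, edgeR adjusted p = 7.2e-11), or 2.49 with library size alone. After thinning, 53.7 to 70.3% of neutrophils per library had an Il1rn UMI, against 0.36% or less of general capillary cells.

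Il1r2, the decoy receptor, had the largest log2 difference of the 7 members tested between neutrophils and alveolar macrophages. It was at 1365 CPM in WT A, 1246 in WT B, 1533 in mutant A and 2420 in mutant B neutrophils. Interstitial macrophages had 8.43 to 22.1 CPM and alveolar macrophages 1.99 to 3.85 CPM, the latter close to the 0.882 to 3.25 CPM of general capillary cells. On the log2 scale, neutrophils were above alveolar macrophages by 10.07 (SE 0.27, edgeR adjusted p = 5.7e-14) and by 9.003 with library size alone. Conventional dendritic cells of type 1 and type 2, with a mean of 336 and 435 CPM, were the next carriers of the decoy RNA.

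Nlrp3, the inflammasome sensor, was high in every phagocyte. Its level was 2116, 1112, 2040 and 1105 CPM in neutrophils of WT A, WT B, mutant A and mutant B. Interstitial macrophages had 788, 736, 598 and 448 CPM, and alveolar macrophages 549, 422, 329 and 245 CPM. The next type of at least 20 cells per library, T cells, was at a mean of 2.62 CPM. Interstitial macrophages lay above alveolar macrophages in 4 of 4 libraries, with a log2 difference of alveolar from interstitial of -1.19 (-0.77 with library size alone, SE 0.12, edgeR adjusted p = 8.9e-07, in a fit where 45.4% of 6524 genes differed). Both A libraries lay above both B libraries in neutrophils.

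Il1a had another order, led by alveolar macrophages, the resident phagocytes of the airspace. It was at 691 CPM in WT A, 504 in WT B, 329 in mutant A and 215 in mutant B alveolar macrophages. Interstitial macrophages had 253, 338, 154 and 145 CPM and neutrophils 182, 46.2, 105 and 31.8 CPM. Neutrophils lay below alveolar macrophages (log2 difference -1.26, SE 0.25, edgeR adjusted p = 0.00026), or -2.40 with library size alone. Alveolar macrophages were above interstitial macrophages in 4 of 4 libraries, by 0.47 (SE 0.16, edgeR adjusted p = 0.029) or 0.89 with library size alone. With predicted doublets kept the difference was 0.10 and was not called (edgeR adjusted p = 0.62).

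Aerocytes, the large capillary endothelial cells that line the gas-exchange surface, also carried Il1a RNA. Their level was 22.8 CPM in WT A, 43.9 in WT B, 20.1 in mutant A and 57.7 in mutant B, from 227, 382, 257 and 500 UMIs. These UMIs were spread over 170 to 238 cells per library, with at most 8 in a single cell. The next endothelial type, arterial, was at 0.498 to 4.09 CPM and general capillary cells at 0.812 to 3.46 CPM, and neither range overlapped with aerocytes. After thinning, 3.49%, 4.04%, 1.44% and 6.16% of aerocytes had an Il1a UMI, against 0.0743 to 0.206% of general capillary cells. The B libraries were the higher in both genotypes, and the genotypes overlapped.

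Among the types with at least 20 cells in every library, Il18 was highest in alveolar macrophages, with a mean 15.2-fold above the next type. Alveolar macrophages held 352 CPM in WT A, 452 in WT B, 360 in mutant A and 419 in mutant B. Interstitial macrophages had 12.3 to 50.6 CPM and neutrophils 9.22 to 14.0 CPM. Alveolar macrophages were above interstitial macrophages by 3.76 on the log2 scale (SE 0.27, edgeR adjusted p = 1.3e-08), or 4.18 with library size alone. A UMI of Il18 was seen in 29.5 to 37.8% of thinned alveolar macrophages per library and in at most 0.0611% of general capillary cells. At most 9.35% of its alveolar macrophage UMIs in a library came from 1 cell.

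Il1r1, the signalling receptor chain, was a gene of structural cells and was near the floor in neutrophils and alveolar macrophages. Adventitial fibroblasts, the cells around larger vessels and airways, held 127 CPM in WT A, 116 in WT B, 136 in mutant A and 127 in mutant B. Smooth muscle cells had 66.0 to 131 CPM, myofibroblasts 56.6 to 126, alveolar fibroblasts 77.8 to 89.5 and venous endothelial cells 68.0 to 88.3 CPM, and these neighbours overlapped. Arterial endothelial cells had 39.9 to 49.1, aerocytes 38.9 to 42.0, general capillary cells 28.0 to 35.9 and pericytes 23.9 to 32.8 CPM. Neutrophils had 1.03 to 3.74 CPM and alveolar macrophages 0.372 to 6.58 CPM, from 1 to 2 UMIs per library in the latter, and a thinned UMI was found in 1 to 2 neutrophils per library.

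The order within the vessel wall and the stroma was larger than the spread between libraries. Il1r1 was above alveolar fibroblasts in adventitial fibroblasts by 0.67 on the log2 scale (SE 0.07, edgeR adjusted p = 3.2e-07, in a fit where 45% of 11379 genes differed). Pericytes lay below alveolar fibroblasts, with a log2 difference of -1.80 (SE 0.12, edgeR adjusted p = 5.0e-13, where 58.1% of 11312 genes differed). Venous endothelial cells, the site where leukocytes leave many vascular beds, were above general capillary cells by 1.32 (SE 0.09, edgeR adjusted p = 2.4e-09, where 28.4% of 12173 genes differed). Of the 7 members tested in the last of these fits, Il1r1 was the only one to differ, and Il1r2 had an adjusted p of 0.054.

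Il1rap, the accessory chain, was found on both sides. Neutrophils held 184, 253, 247 and 225 CPM in WT A, WT B, mutant A and mutant B, without overlap with any other type of that size. Myofibroblasts had 42.5 to 54.2 CPM, alveolar fibroblasts 30.8 to 43.6, adventitial fibroblasts 26.1 to 35.1, alveolar macrophages 23.0 to 42.8 and aerocytes 13.1 to 18.3 CPM. Adventitial and alveolar fibroblasts did not differ beyond their spread (log2 difference -0.06, SE 0.12, edgeR adjusted p = 0.71).

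**Figure D2:**
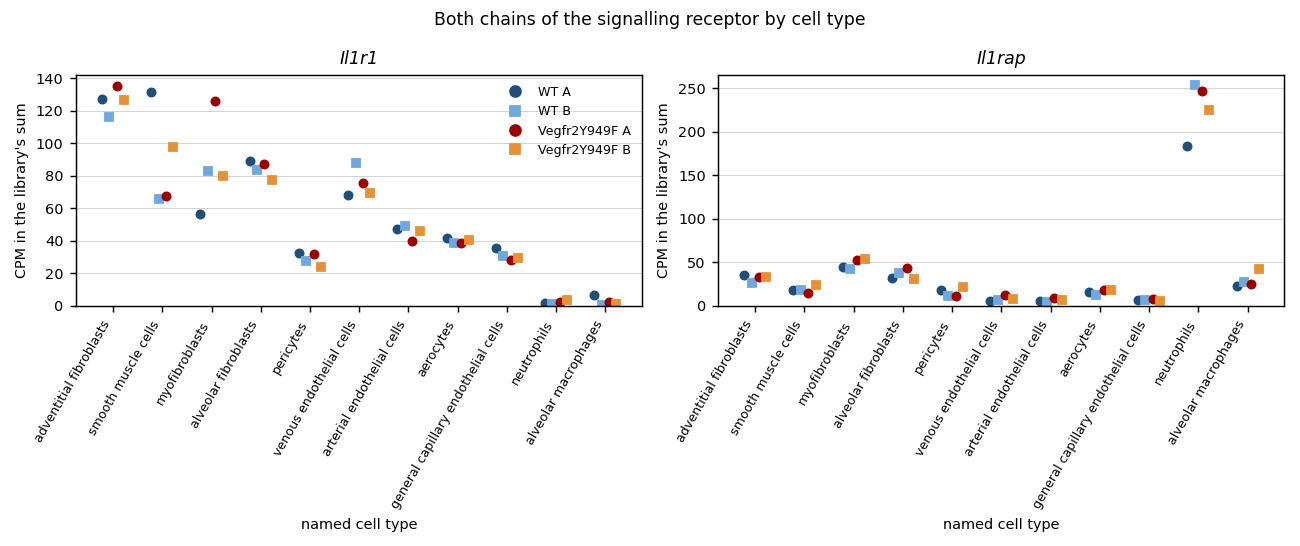
CPM of Il1r1 (left) and Il1rap (right) in the sum of each library (points; circles are set A, squares set B, blue WT, red and orange mutant) for 11 cell types. Il1r1 is highest in adventitial fibroblasts, at 116 to 136 CPM, and near 0 in neutrophils and alveolar macrophages, while Il1rap is highest in neutrophils at 184 to 253 CPM.

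The cells that held a gene's UMIs in a whole suspension differed between libraries. Neutrophils gave 90.2% of all Il1b UMIs in WT A, 54.0% in WT B, 89.7% in mutant A and 43.0% in mutant B. Monocytes and dendritic cells together gave 4.09%, 19.8%, 6.36% and 35.3% of them in the same order. Macrophages gave 4.40%, 22.0%, 1.81% and 14.2%. The share of neutrophils was 73.2 to 95.6% of Il1r2 UMIs and 60.7 to 92.0% of Il1rn UMIs. Alveolar macrophages, at 0.436 to 1.90% of kept cells, gave 60.8 to 86.3% of the Il18 UMIs. For Il1r1, the 4 blood endothelial types together gave 49.0 to 56.6% and stromal cells 30.2 to 40.2%. For Il1a, aerocytes gave 24.7%, 16.8%, 18.3% and 51.1%, macrophages 29.4%, 70.1%, 23.2% and 30.5%, and neutrophils 38.7%, 3.95%, 44.96% and 3.47%.

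**Figure D3:**
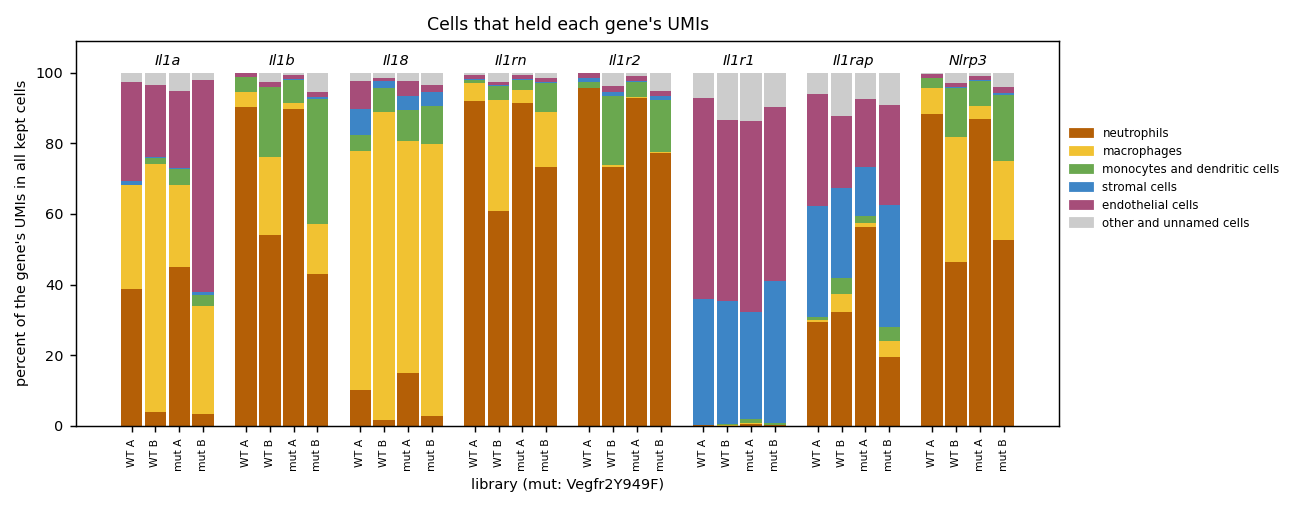
Percent of each gene's UMIs in all kept cells (vertical axis) held by neutrophils, macrophages, monocytes and dendritic cells, stromal cells, endothelial cells and the other cells, one bar per library (horizontal axis, mut for Vegfr2Y949F). Neutrophils hold 43.0 to 90.2% of Il1b UMIs, and endothelial and stromal cells hold most Il1r1 UMIs in each library.

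Summed over all kept cells, Il1b was at 165 CPM in WT A, 146 in WT B, 368 in mutant A and 106 in mutant B, an order that matched the share of neutrophils in 4 of 4 libraries. In such sums, fewer cells of a type and less RNA per cell cannot be told apart. None of 16674 genes (0%) differed by genotype in the sums of all kept cells (edgeR), while 74 had an unadjusted p under 0.05 and DESeq2 called 5.

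The genotypes were compared within neutrophils on the sums of 1069122 to 6004996 UMIs per library. No gene of 6992 (0%) passed an adjusted p of 0.05 with edgeR, 179 had an unadjusted p under 0.05, and DESeq2 called 0. Of the 8 members, 7 passed the filter on low counts, with a median log2 difference of 0.06 against -0.01 over all genes; Il1r1 did not pass. Il1r2 was the only one with both mutant libraries above both WT libraries, with a log2 difference of 0.55 (SE 0.27, edgeR adjusted p = 1.00), where 18.6% of all genes lay above both WT libraries in the same way, and no member lay below both, as 12.2% of genes did. For Il1b the difference was -0.21 (SE 0.31), for Nlrp3 -0.07 (SE 0.38), for Il1rn 0.17 (SE 0.26) and for Il1a -0.68 (SE 0.63), each with an edgeR adjusted p of 1.00. These values do not show that the genotypes were alike. Without mutant A, Il1a in neutrophils was called, at -1.91 (edgeR adjusted p = 0.00037), and without WT A its difference was 0.58, so its direction rested on single libraries.

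The neutrophil libraries separated by set letter for 3 of 7 members tested with both A libraries above both B libraries, where 22.3% of 6992 genes did so, and for Il18 the other way, where 20.2% did. Il1b was at 5204 and 4405 CPM in the A libraries against 3155 and 2992 in the B libraries, Nlrp3 at 2116 and 2040 against 1112 and 1105, and Il1a at 182 and 105 against 46.2 and 31.8. Of the 23 tested genes of the interleukin-1 and NF-kB response list, 16 lay higher in both A libraries and 1 lower. The 28 listed genes summed to 56460 and 46020 CPM in the A libraries and to 27840 and 20300 CPM in the B libraries, most of it Cxcl2, and without Cxcl2 to 14890 and 13110 against 9571 and 5343 CPM. Lcn2 did not separate, at 1124 and 1167 CPM in A and 1874 and 620 CPM in B. The 13 immediate early genes, which respond within minutes to handling of tissue, summed to 12010 and 10460 CPM in A and to 8405 and 9601 CPM in B. The markers of erythroid cells summed to 26.1, 139.5, 841 and 12.2 CPM in WT A, WT B, mutant A and mutant B. The labels do not say what a set is, and the part of these values in the levels of the members was not tested.

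**Figure D4:**
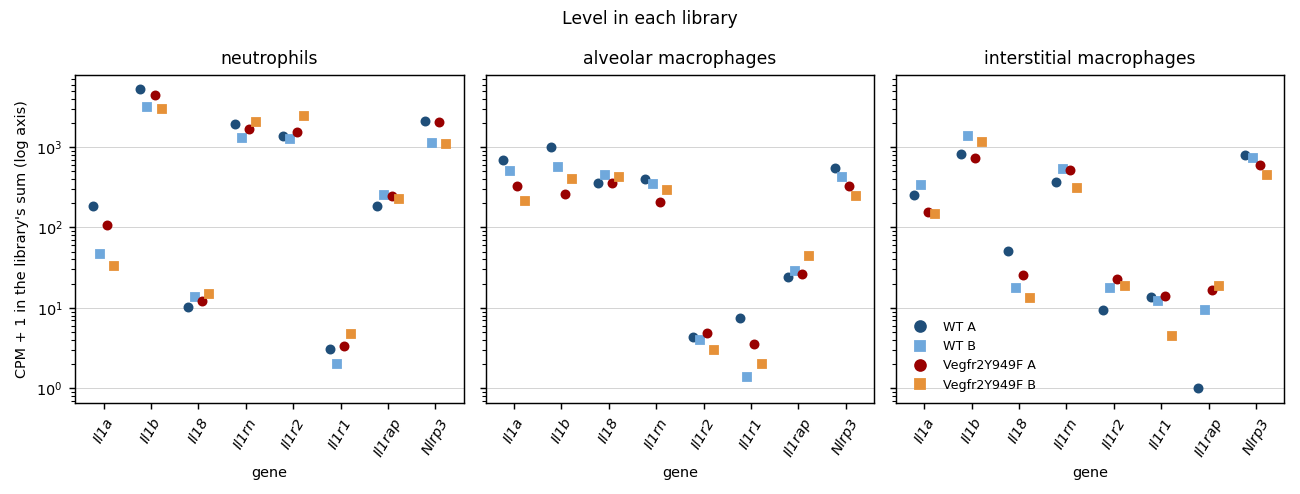
CPM + 1 (log axis) of the 8 genes in each library's sum for neutrophils, alveolar macrophages and interstitial macrophages; circles are set A, squares set B, blue WT, red and orange mutant. In neutrophils Il1a, Il1b and Nlrp3 are higher in both A libraries, and in both macrophage types Il1a and Nlrp3 are lower in both mutant libraries.

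Neutrophils were not uniform in these genes. They were split into 6 sub-clusters without the members. The sub-cluster led by Fpr1 and Fpr2, formyl peptide receptors, had the highest Il1b, at 6301, 4275, 5056 and 5575 CPM in WT A, WT B, mutant A and mutant B. The sub-cluster led by the granule genes Ngp, Camp and Ltf had 4277, 3022, 3580 and 2744 CPM, below the first in 4 of 4 libraries. Those genes mark young neutrophils, but in mutant B Camp was at only 94.9 and Ltf at 65.7 CPM there. Of the mature neutrophil list, Retnlg and Cxcr2 had their highest means in this sub-cluster (14950 and 270 CPM). Ptgs2 and Ccl3 had their lowest means there (326 and 1861 CPM). Il1rn in the granule sub-cluster was 793 to 1405 CPM, against 2459 to 3065 CPM in the sub-cluster led by Icam1, Bcl2a1a and Tnf, with no overlap. Il1r2 went the other way, at 1374 to 2273 CPM in the granule sub-cluster and 1024 to 1605 CPM in the Icam1 sub-cluster, higher in the former in 4 of 4 libraries. These levels were not particular to the granule sub-cluster. The sub-cluster led by Isg15 had Il1b at 2288 to 4144 and Il1r2 at 1243 to 2654 CPM. A sub-cluster of 93 cells led by Hba-a1 had Il1b at 1509 to 2962 and Il1rn at 637 to 1107 CPM. It held 6 cells in mutant B. Besides globin genes, its leading genes were Ly6c1, Cldn5, Ly6a and Cxcl12, the last a marker used here for arterial endothelial cells. The part of RNA from other cells in these values was not tested. Some sums rested on few cells: the Icam1 sub-cluster held 26 in WT B and 17 in mutant B, and the Fpr1 sub-cluster 26 in mutant B. These are descriptions with no test, since genes that go with the members shaped the sub-clusters.

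The libraries differed in this make-up. The granule sub-cluster was 11.9%, 47.9%, 17.3% and 21.6% of neutrophils in WT A, WT B, mutant A and mutant B. The sub-cluster led by Isg15, an interferon-induced gene, was 61.8% of mutant B neutrophils and 14.1 to 19.2% of the others, and the Icam1 sub-cluster was 21.9% and 18.15% in the A libraries and 5.15% and 4.47% in the B libraries. The ratio of Il1rn to Il1b UMIs in neutrophils was 0.369, 0.410, 0.385 and 0.677 in WT A, WT B, mutant A and mutant B, and that of Il1r2 to Il1b 0.262, 0.395, 0.348 and 0.809, so mutant B stood apart in both. In the Isg15 sub-cluster alone, Il1b was at 3758, 2288, 4144 and 2691 CPM and Il1r2 at 1691, 1243, 1788 and 2654 CPM in WT A, WT B, mutant A and mutant B, so mutant B was the highest in Il1r2 and lay between WT B and the A libraries in Il1b. Mutant B was the highest in Il1r2 in every other sub-cluster too, at 1605 to 2454 CPM from 6 to 82 cells each. It was also the highest in Il1rn in all sub-clusters but the one led by Hba-a1.

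**Figure D5:**
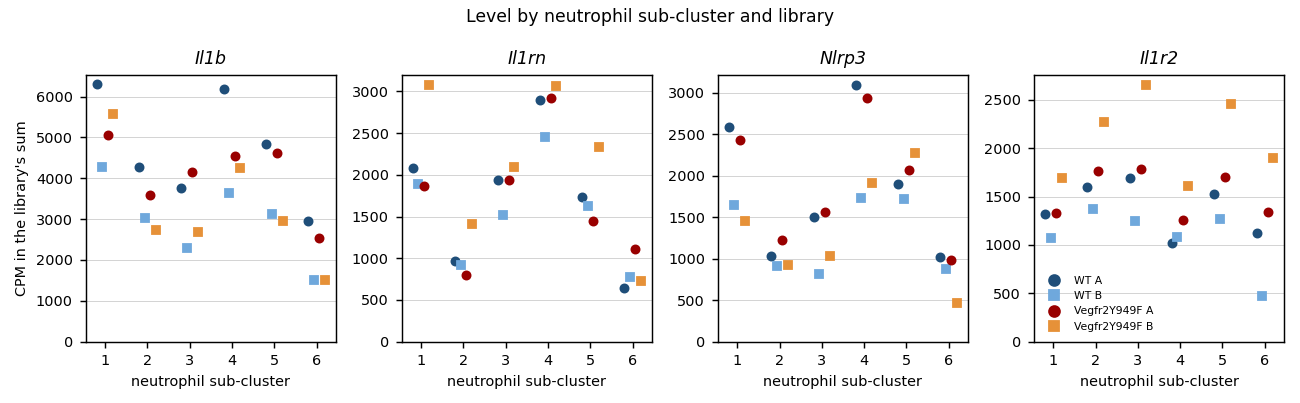
CPM of Il1b, Il1rn, Nlrp3 and Il1r2 in each library's sum (vertical axis) for the 6 neutrophil sub-clusters (horizontal axis; circles set A, squares set B, blue WT, red and orange mutant). Sub-cluster 2, led by Ngp, Camp and Ltf, has low Il1rn at 793 to 1405 CPM, and sub-cluster 4, led by Icam1, Bcl2a1a and Tnf, has the highest mean at 2459 to 3065 CPM.

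In macrophages, alveolar and interstitial together, Il1a, Il1b, Nlrp3 and Il1rn were lower in both mutant libraries. None passed the threshold over all genes. Il1a was at 499 CPM in WT A and 469 in WT B against 265 in mutant A and 190 in mutant B, a log2 difference of -1.14 (SE 0.23, edgeR unadjusted p = 0.0016, adjusted p = 1.00). Nlrp3 was at 654 and 488 against 428 and 318 CPM, a difference of -0.66 (SE 0.26, edgeR adjusted p = 1.00). Il1b was at 916 and 738 against 433 and 668 CPM, a difference of -0.64 (SE 0.27, edgeR adjusted p = 1.00). Il1rn was also lower in both mutants, at 381 and 385 against 324 and 295 CPM (-0.36, SE 0.20, edgeR adjusted p = 1.00). Thus 4 of the 7 members that passed the filter lay below both WT libraries in both mutants, where 10.6% of 8762 genes did, and Il1r2 lay above both, where 16.5% did. Il18, by contrast, was at 220 and 361 against 236 and 271 CPM, and overlapped.

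No gene of 8762 (0%) passed in macrophages with edgeR, 158 had an unadjusted p under 0.05, and DESeq2 called 1. The median log2 difference of the members was -0.36, against -0.01 over all genes. The call on Il1a changed with the settings: its adjusted p was 0.0063 with no filter on low counts and 0.012 without WT B, and it lay between 0.0063 and 1.00 over the 10 alternatives, with a log2 difference of -0.92 to -1.40. The share of alveolar macrophages in the macrophage sums differed between libraries, with 47 cells of each type in WT A, 185 alveolar and 100 interstitial in WT B, 105 and 66 in mutant A, and 91 and 86 in mutant B. Neutrophil markers summed to 163, 248, 591 and 221 CPM in these sums and erythroid markers to 35.1, 9.11, 2478 and 7.61 CPM, both highest in mutant A. Their part in the result was not tested.

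The lower Il1a was seen in each macrophage type by itself. Alveolar macrophages gave a log2 difference of -1.17 (SE 0.26, edgeR adjusted p = 1.00) and interstitial macrophages -1.06 (SE 0.26, edgeR adjusted p = 1.00), with both mutant libraries below both WT libraries in each type, as for 11.7% of all genes in alveolar and 12.1% in interstitial macrophages. In alveolar macrophages Il1b differed by -1.28 (SE 0.30), Nlrp3 by -0.79 (SE 0.22) and Il1rn by -0.61 (SE 0.21), each with an edgeR adjusted p of 1.00 and both mutants below both WT libraries, whereas Il18 differed by -0.11 (SE 0.19). That made 4 of 6 members tested below both and 0 above both, where 19.8% of all genes lay above. In interstitial macrophages 2 of 5 members tested, Il1a and Nlrp3, lay below both and 0 above both, where 20.2% of all genes lay above. With no filter on low counts, both Il1a and Il1b were called in alveolar macrophages (edgeR adjusted p = 0.00045 and 3.35e-05), as they were without WT A (0.011 and 0.037) and without WT B (0.038 and 0.012). Other lists lay lower in mutant alveolar macrophages too. The median log2 difference was -0.70 for the 6 members, -0.84 for 7 mature neutrophil genes tested (6 below 0, 3 at an unadjusted p under 0.05, lowest edgeR adjusted p = 0.286), -0.40 for 19 response genes (16 below 0) and -0.18 for 13 immediate early genes (10 below 0), against -0.00098 over all genes. Of the immediate early genes, 4 lay below both WT libraries. The 10 listed mature neutrophil genes summed to 1615, 1205, 909 and 754 CPM there, and their part in the values of the members was not tested. That list shares Icam1 and Ptgs2 with the response list. It also holds Ccl4, a leading gene of interstitial macrophages, so it does not mark neutrophil RNA alone. In interstitial macrophages Il1b was at 818, 1363, 734 and 1145 CPM in WT A, WT B, mutant A and mutant B, and overlapped. edgeR called 0 of 7532 genes (0%) in alveolar macrophages, with 160 at an unadjusted p under 0.05 and 4 called by DESeq2, and 0 of 5344 (0%) in interstitial macrophages, with 174 and 0.

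Few cells stood behind these sums. In alveolar macrophages of WT A, 1 cell gave 85 of 302 Il1b UMIs and 51 of 210 Il1a UMIs, the largest shares of the 4 libraries. Without the cell richest in Il1a in each library, a check chosen after the values were seen, Il1a in alveolar macrophages was 553 and 474 CPM in WT against 313 and 203 in the mutants. Without the cell richest in Il1b, Il1b was 755 and 465 against 206 and 332 CPM. The order of the genotypes was the same as with these cells. Whether the shares of cells with an Il1a UMI overlapped between genotypes depended on the thinning. In alveolar macrophages of WT A, WT B, mutant A and mutant B it was 31.9%, 22.2%, 26.7% and 6.59% with 1000 UMIs per cell, where the genotypes overlapped. With 2000 UMIs per cell, which left out 4 to 14 cells per library, it was 56.4%, 43.8%, 31.9% and 32.2%, and unthinned it was 61.7%, 75.7%, 59.05% and 59.3%, without overlap in both. In interstitial macrophages it was 14.9%, 18%, 6.06% and 8.14% with 1000 UMIs and 22.9%, 34.1%, 16.7% and 12.8% with 2000, without overlap, whereas unthinned it was 29.8%, 47%, 31.8% and 22.1%, which overlapped. For Il1b the shares overlapped at each of these settings in both macrophage types.

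Stromal cells (alveolar and adventitial fibroblasts, myofibroblasts, smooth muscle cells and pericytes) differed little in their receptor. Il1r1 was at 90.9 CPM in WT A, 82.9 in WT B, 89.7 in mutant A and 81.5 in mutant B, a log2 difference of -0.07 (SE 0.16, edgeR adjusted p = 1.00). Il1rap was at 31.6, 32.7, 37.9 and 31.1 CPM, a difference of 0.05 (SE 0.16, edgeR adjusted p = 1.00). No gene of 13158 (0%) passed with edgeR, 183 had an unadjusted p under 0.05, and DESeq2 called 3. In the 4 blood endothelial types together, Il1r1 was at 40.2, 39.3, 34.8 and 36.6 CPM (-0.21, SE 0.14, edgeR adjusted p = 1.00), below both WT libraries in both mutants, as for 7.13% of all genes. The other 7 members had log2 differences above 0, and the median of the 8 was 0.47 against -0.01 over all genes. Of these, Il1rap lay above both WT libraries in both mutants, at 8.91 and 8.16 against 11.6 and 9.05 CPM, as 14.8% of all genes did. Of the mature neutrophil genes, a list that does not mark neutrophil RNA alone, 9 of 10 lay above 0 there, with a median of 0.71. Their part in the values of the members was not tested. No gene of 13938 (0%) passed with edgeR there, 160 had an unadjusted p under 0.05, and DESeq2 called 7.

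Il1b in stromal cells was close to its level in general capillary cells. It was at 1.32 CPM in WT A, 1.99 in WT B, 6.87 in mutant A and 3.59 in mutant B, from 16, 24, 66 and 49 UMIs, a log2 difference of 1.58 (SE 0.41, edgeR adjusted p = 1.00). It was the only one of 7 members tested in stromal cells with both mutants above both WT libraries, as 14.5% of all genes were, and no member lay below both, as 9.88% were. In mutant B, 28 of the 49 UMIs came from 1 cell, and without the richest cell of each library the levels were 1.15, 1.82, 6.67 and 1.54 CPM. General capillary cells had 2.54, 3.92, 7.64 and 2.76 CPM, also highest in mutant A, the library with the most neutrophils. The part of free RNA in the stromal values was not tested.

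In the 16 cell types tested apart, no member passed the genotype test. The calls were Gm8797 and Kcnk1 in alveolar fibroblasts (0.0163% of 12240 genes), Hbb-bs in arterial endothelial cells (0.0103% of 9696) and the neutrophil genes S100a8 and S100a9 in club cells (0.0295% of 6780), all named after their values were seen. In club cells, of which 1 library held 22, Il1b was at 0 and 1.51 CPM in WT A and WT B and at 11.2 and 25.4 CPM in mutant A and mutant B (log2 difference 3.91, SE 0.86, edgeR adjusted p = 0.97), beside the higher S100a8 and S100a9, whose part in it was not tested.

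Whether a genotype difference itself differed between compartments was tested by an interaction term. None of 9796 genes (0%) passed between neutrophils and macrophages with edgeR (234 at an unadjusted p under 0.05), and the interaction of Il1a there was 0.60 (SE 0.56, edgeR adjusted p = 1.00). The genotype difference of Il1a in macrophages is therefore not shown to differ from that in neutrophils. The median interaction of all genes between neutrophils and stromal cells was 0.12 with TMM factors and near 0 with library size alone, which called 10 genes there and 2 between neutrophils and macrophages. Between neutrophils and stromal cells 0.0299% of 13391 genes passed, which were Ccl21a, Hbb-bt, Snhg15 and Inhba, and between macrophages and stromal cells 0.00744% of 13435, which was Ereg, all named after their values were seen. Il1b had the lowest p of the members in both, with interactions of -1.67 (edgeR adjusted p = 0.83, or 0.0010 with library size alone) and -2.19 (edgeR adjusted p = 0.069), and both rest on the stromal values above.

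The other members of the family, taken from fixed lists, are given by the types that held the most. Il1f9, which encodes interleukin-36 gamma, was at 1895 CPM in WT A, 1466 in WT B, 1794 in mutant A and 822 in mutant B neutrophils, and at 0.405 to 2.42 CPM in the blood endothelial types together. Il33, an alarmin of barrier cells, was at 55.7 to 111 CPM in adventitial fibroblasts, which held 598 of the 645 stromal UMIs, and at 73.6 to 258 CPM in alveolar type 2 cells, of which 1 library held 8. Il1rl1, its receptor, was at 355 to 772 CPM in group 2 innate lymphoid cells and at 14.4 to 23.4 CPM in neutrophils. Il18r1, the ligand-binding chain of the interleukin-18 receptor, was at 325, 235, 246 and 296 CPM in alveolar type 1 cells of WT A, WT B, mutant A and mutant B, and at 154 to 194 CPM in ciliated cells. Its partner Il18rap was at 295 to 533 CPM in natural killer cells and at 104 to 153 CPM in neutrophils. Sigirr, an inhibitory receptor of the family, was at 27.8 to 36.8 CPM in the blood endothelial types, and Il18bp, the soluble binder of interleukin-18, at 10.5 to 17.4 CPM.

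None of the genes of the pathway lists passed the genotype test in the 3 compartments (edgeR, adjusted over all genes). In neutrophils 2 of 7 ligands and binding proteins, 3 of 7 receptors, 10 of 18 inflammasome and processing genes, 15 of 16 signalling genes and 23 of 28 response genes were tested. In macrophages the counts were 0, 1, 12, 15 and 20, and in stromal cells 3, 3, 8, 16 and 25. The median log2 difference of the response genes was -0.17 in neutrophils, -0.20 in macrophages and -0.07 in stromal cells, where all genes had a median of -0.01 in each. Cxcl2, a neutrophil chemoattractant, had the highest level of the response genes in neutrophils, at 41560, 18270, 32910 and 14960 CPM in WT A, WT B, mutant A and mutant B (log2 difference -0.35, SE 0.46, edgeR adjusted p = 1.00). Nfkbia, the feedback inhibitor of NF-kB, was at 8110, 4999, 6728 and 2303 CPM there (-0.57, SE 0.47), followed by Lcn2 and Tnfaip3.

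In macrophages Cxcl2 was at 16120, 9643, 12170 and 7688 CPM (-0.44, SE 0.35, edgeR adjusted p = 1.00), and Cxcl1 at 935, 789, 754 and 408 CPM (-0.62, SE 0.31, edgeR adjusted p = 1.00). The best-covered response genes of stromal cells were Nfkbia, Cxcl1, Nfkbiz and Il6, with log2 differences of -0.05, -0.42, 0.19 and -0.20. Of the signalling genes, Nfkb1 had the highest mean level in each compartment, with 219 to 383 CPM in neutrophils, 454 to 547 in macrophages and 225 to 344 in stromal cells. Irak2 and Irak3, a kinase and an inhibitor of the receptor complex, followed in neutrophils with log2 differences of -0.14 and -0.45. Of the inflammasome genes, Txnip led in all 3 compartments, at 457 to 507 CPM in neutrophils, and Mefv, which encodes pyrin, was at 242 to 381 CPM there. Casp1, the enzyme that cleaves both precursors, was at 6.55 to 10.8 CPM in neutrophils and 33.8 to 50.1 CPM in alveolar macrophages, and the adaptor gene Pycard at 9.35 to 13.9 and 24.4 to 50.7 CPM.

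Likeness of pattern was measured as Pearson's r of log2(mean CPM + 1) over the 27 named cell types, a description over points that share libraries, with no p. Among 13484 genes, the closest to Il1b were Cd300c2 (0.966), Nlrp3 (0.962), Mcemp1 (0.958), Alox5ap (0.956) and Gpr35 (0.948). Those closest to Il1rn were Tnf (0.945), Hk3 (0.940), Nlrp3 (0.934), Lilr4b (0.933) and Ccl6 (0.923). Il18 was closest to Ccl6 (0.8775), Cd68 (0.873) and Tlr2 (0.863), and Il1a to Gm37168 (0.890), Clec5a (0.843) and P2ry13 (0.838). Il1r1 was closest to Ttc21b (0.899), Pard3b (0.893) and Copz2 (0.889). Il1rap had no close match, with a highest r of 0.709, for Ell2.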

How the data were processed

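The authors deposited whole-number UMI counts per gene and barcode, not normalized, written by Cell Ranger 6.1.1 per the file headers, on build mm10 with fastp, UMI-tools and Seurat 4.1.0 named in the submitters' processing notes. The annotation used for counting was not given in the sources used here. Kept cells had at least 500 genes, at least 1000 UMIs and under 15% mitochondrial UMIs. Scrublet's automatic threshold marked 0 to 387 cells per library, so the highest 8% of scores per library were removed as doublets. Cells were clustered with scanpy 1.11.5 (2000 variable genes without the members, 40 components, 15 neighbours, Leiden resolution 1) and clusters named from fixed markers, so names can differ from the study's.

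UMIs were summed per library and type and tested with edgeR 4.0.16 (quasi-likelihood, TMM, filterByExpr, Benjamini-Hochberg over all genes tested, threshold 0.05). CPM is a gene's share of a sum, scaled to the same total for every sum. Types with at least 20 cells in every library were tested apart. Tested on simulated data, edgeR recovered 20% of 2-fold and 89% of 4-fold changes in neutrophils (6992 genes), 21% and 87% in macrophages (8762) and 56% and 94% in stromal cells (13158). The simulation gave all genes of a compartment the same dispersion, so recovery for genes that vary more between libraries was not tested. Alternatives were DESeq2 1.42.0, library size alone, no filter on low counts, a replicate block, stricter cells (800 genes, 10% mitochondrial), doublets kept and each library left out. Named were all members, pathway genes past the threshold, the 4 best-covered genes of each pathway list and 5 genes most like each member in pattern, of which the text gives the leading ones. The members and lists were chosen with earlier results of these data known. The feature tables name the interleukin-36 genes by older symbols, matched through RefSeq synonyms.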

Additional observations from a re-analysis of the deposited data

How the results depend on the processing

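The counts of genes that differed by genotype moved with the processing, while the 7 counts between cell types stayed within 1.5 times. In neutrophils the count went from 0 to 18 with no filter on low counts, 4 with doublets kept and 1 to 127 with a library left out. In macrophages it went from 0 to 1 with DESeq2, 33 with no filter and 4 to 82 with a library left out. In stromal cells it went from 0 to 3, 13 and 4 to 20 in the same order. Over the other cell types tested apart and the blood endothelial types together it went from 5 to 40 with DESeq2, 515 with no filter and 267 to 562 with a library left out. In all kept cells it went from 0 to 5 with DESeq2 and 0 to 59 with a library left out. Between compartments it went from 5 to 13 with library size alone. The mean share of neutrophils with an Il1b UMI was 82.7% thinned and 94.1% unthinned. The causes were not tested. Where a library is left out, the lone sample of its group is assumed to vary like the other group.

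With the set letter as a replicate block, the count was 59 in neutrophils, 4 in macrophages, 35 in stromal cells and 371 over the other types and the blood endothelial types together. Il1b in stromal cells was called at 1.55 (edgeR adjusted p = 0.018) and Il1a in alveolar macrophages at -1.20 (edgeR adjusted p = 0.0034), and the block changed no other call on a member. Same-letter libraries deviated together with a correlation of 0.277 in neutrophils, 0.263 in macrophages and 0.232 in stromal cells, over only 2 pairs, and since the meaning of the letter is not given no pairing is claimed.

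With doublets kept, the log2 difference changed sign for Il1rn (-0.047), Il1rap (-0.17) and Il18 (-0.080) in neutrophils, Il1r2 in stromal cells (1.49), Il1rap between adventitial and alveolar fibroblasts (0.086) and Il1b between venous and general capillary cells (0.41). With library size alone it changed sign for Il1r2 in stromal cells (0.030) and in the interaction of neutrophils with macrophages (0.0019). None of these had passed the threshold.

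Leaving out a library changed the sign of members that had not passed. In neutrophils the log2 difference over the libraries left out was, for Il1a -1.91 to 0.58, Il1b -0.55 to 0.16, Il1rn -0.060 to 0.45, Il1rap -0.17 to 0.35, Il18 -0.16 to 0.37 and Nlrp3 -0.61 to 0.43. In macrophages the log2 difference over the libraries left out was, for Il18 -0.53 to 0.13. In stromal cells the log2 difference over the libraries left out was, for Il1rn -0.95 to 1.17, Il1r2 -0.23 to 0.19, Il1rap -0.029 to 0.13, Il18 -0.49 to 0.59 and Nlrp3 -0.15 to 1.22. In alveolar macrophages the log2 difference over the libraries left out was, for Il1rap -0.065 to 0.64 and Il18 -0.27 to 0.086. In interstitial macrophages the log2 difference over the libraries left out was, for Il1b -0.69 to 0.16 and Il1rn -0.62 to 0.14.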
